A study of Mus musculus with 6 samples.

Results

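The 10 genes described here encode products made by neutrophils, though not all by neutrophils alone. They are 3 early granule enzymes, Mpo, Elane and Prtn3, and 7 products made later, Ngp, Camp, Lcn2, S100a8, S100a9, Retnlg and Ly6g. They were taken by gene symbol from a table of 31319 genes, in which each symbol occurred once, and all 10 were among the 18444 genes with enough counts to be tested. The libraries were poly(A)-selected RNA of the main olfactory epithelium, the odour-sensing lining of the nose, from male C57BL/6 mice aged 5 months. There were 3 libraries of mice labelled miR-200b/a KD (KD-1 to KD-3), a knockdown of the microRNAs miR-200b and miR-200a, and 3 of mice labelled NC (NC-1 to NC-3), whose count columns are headed as controls. How the knockdown was made, in which cells, and what the NC mice carried or received is not stated in the labels. Whether every library is a separate mouse is not stated, and p-values then measure only how these libraries scatter, which may be technical in part. Values below are given for the KD libraries in number order and then for the NC libraries. The comparison of KD with NC asks how these transcripts differ when the microRNAs are lowered.

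Neutrophils build their granules in sequence while they mature in bone marrow. Azurophil granule enzymes such as myeloperoxidase and neutrophil elastase are transcribed at the promyelocyte stage and their mRNAs are then lost, specific granule proteins such as cathelicidin and lactoferrin follow in later precursors, and cells that have left the marrow carry little mRNA for either but much for S100a8, S100a9 and surface receptors. Transcripts of the early enzymes in a tissue are therefore usually scarce, while S100a8 and S100a9 are the common markers of recruited neutrophils.

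The promoters of the members are shown first, and whether their motifs bear on the members' levels was not tested. PU.1, an ETS-family factor, and the C/EBP factors are the textbook regulators of granule genes. In windows from 250 bases before to 50 after the start site (RefSeq, GRCm38.p6, all 10 members matched by symbol), the PU.1 core GAGGAAGT was searched on both strands and was present in all 3 early members and in S100a8 and Ly6g, 5 of 10 members, against 3.2% of all 32851 promoters of that length. The C/EBP pattern TTGCNNAA, also on both strands, was present in Ngp, Lcn2, S100a9, Retnlg and Ly6g and in 10.8% of all promoters. The patterns were chosen with the sequences in view, no match overlapped another, and a match describes the letters and is not a shown binding site. Capitals mark the matches in these 5 windows, each read 5′ to 3′ on the gene's strand, which is the plus strand throughout: Mpo at chr11:87793534-87793833, Elane at chr10:79886062-79886361, Prtn3 at chr10:79879417-79879716, S100a8 at chr3:90668821-90669120 and Ngp at chr9:110419558-110419857.
Mpo: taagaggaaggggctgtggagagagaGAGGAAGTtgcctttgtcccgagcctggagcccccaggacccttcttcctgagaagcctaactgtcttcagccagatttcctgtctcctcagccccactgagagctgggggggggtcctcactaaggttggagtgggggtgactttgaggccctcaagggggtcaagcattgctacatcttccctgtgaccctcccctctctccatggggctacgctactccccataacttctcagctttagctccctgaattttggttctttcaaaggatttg
Elane: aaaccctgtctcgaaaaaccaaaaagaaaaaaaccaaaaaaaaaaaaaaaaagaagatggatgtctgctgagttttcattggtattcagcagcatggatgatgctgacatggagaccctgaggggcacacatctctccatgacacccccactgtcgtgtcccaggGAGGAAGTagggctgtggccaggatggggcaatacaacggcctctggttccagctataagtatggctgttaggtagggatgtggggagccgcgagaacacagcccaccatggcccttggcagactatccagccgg
Prtn3: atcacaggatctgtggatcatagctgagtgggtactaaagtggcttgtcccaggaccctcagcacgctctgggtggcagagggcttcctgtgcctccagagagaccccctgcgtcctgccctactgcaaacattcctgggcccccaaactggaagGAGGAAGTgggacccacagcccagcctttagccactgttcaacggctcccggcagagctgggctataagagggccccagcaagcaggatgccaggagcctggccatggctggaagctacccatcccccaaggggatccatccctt
S100a8: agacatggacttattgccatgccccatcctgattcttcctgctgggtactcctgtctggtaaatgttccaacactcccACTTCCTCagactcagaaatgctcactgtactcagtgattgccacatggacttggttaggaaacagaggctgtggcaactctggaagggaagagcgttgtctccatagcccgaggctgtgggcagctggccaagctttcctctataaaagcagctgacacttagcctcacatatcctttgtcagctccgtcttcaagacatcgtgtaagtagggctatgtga
Ngp: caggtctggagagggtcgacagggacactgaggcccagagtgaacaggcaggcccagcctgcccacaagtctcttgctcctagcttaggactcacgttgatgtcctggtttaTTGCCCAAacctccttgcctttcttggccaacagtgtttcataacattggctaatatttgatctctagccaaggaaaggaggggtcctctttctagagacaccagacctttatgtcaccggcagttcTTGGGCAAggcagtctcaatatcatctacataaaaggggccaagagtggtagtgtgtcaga

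The PU.1 core began 224 bases before the start site in Mpo, 85 before it in Elane and 95 before it in Prtn3. In S100a8 the match lay on the opposite strand. Ngp held the C/EBP pattern on each strand and no PU.1 core, and Camp held neither pattern.

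The microRNAs that were knocked down are shown with their seed, bases 2 to 8, in capitals, since a direct target would carry the seed's complement in its 3′ UTR. Both derive from neighbouring loci on chromosome 4 (minus strand, GRCm38.p6).
miR-200b-3p: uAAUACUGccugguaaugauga
miR-200a-3p: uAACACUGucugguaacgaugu

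Taking for each gene its longest 3′ UTR in GENCODE M21, the complement of the miR-200b seed, CAGTATT, was present in 1 of 10 members, Ly6g, at position 271 of 387 bases, and in 14.5% of 19077 genes. The site in capitals with its flanks reads atgaaagaggCAGTATTccaaggtatt. That of miR-200a, CAGTGTT, was present in 0 of 10 members and in 19% of genes. The members' 3′ UTRs were short, from 56 bases in Camp to 603 in Ngp, against a median of 1192 over all genes with one.

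The libraries held between 15704791 and 17618540 counts. They differed in tissue make-up before any grouping: 12 tested markers of mature olfactory neurons summed to 73 CPM in KD-2 (counts scaled to library size with TMM factors, the unit of all levels below). The remaining KD libraries held 3637 and 4535 CPM and the NC libraries 7715 to 12323. KD-2 therefore held few transcripts of the labelled tissue's defining cell. NC-1 stood apart in the other direction, with the lowest level of 23 of 23 mature neutrophil genes, where 32.5% of all tested genes were lowest in that library. Results are accordingly given with and without these libraries. In tissue RNA, more cells of a type cannot be told apart from more RNA per cell.

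Mpo, Elane and Prtn3, the early enzymes, were high in KD-1 and KD-2, intermediate in NC-3 and low in the remaining 3 libraries, KD-3 among them. Mpo, myeloperoxidase, which makes hypochlorous acid (ENSMUSG00000009350, chromosome 11, 87793581 to 87804413, GRCm38), had 356, 166 and 13 counts against 1, 16 and 83. KD-3 thus lay below NC-2 once scaled, at 0.717 against 0.817 CPM, and the groups overlapped. Elane, neutrophil elastase (ENSMUSG00000020125, chromosome 10, 79886247 to 79888215), had 316, 120 and 3 counts against 4, 5 and 58. KD-3 was the lowest of all 6 for this gene, and KD-1 lay 112 times above it (95% exact interval 37.8 to 544, for counting error alone, as for all intervals here). Prtn3, proteinase 3 (ENSMUSG00000057729, chromosome 10, 79874476 to 79883174), lies 3072 bases from Elane and had 469, 189 and 28 counts against 20, 39 and 116. Its floor was higher than that of Elane, with 20 counts in NC-1 where Elane had 4. The annotated ends of Prtn3 and the opposite-strand gene Plppr3 overlap, and an antisense gene, Gm11505, lies within Mpo; the use of strand in counting is not stated, and without strand such reads cannot be told apart. Plppr3 itself had 381, 215 and 605 counts in KD and 688, 781 and 733 in NC, and its part in the Prtn3 counts was not tested.

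**Figure D1:**
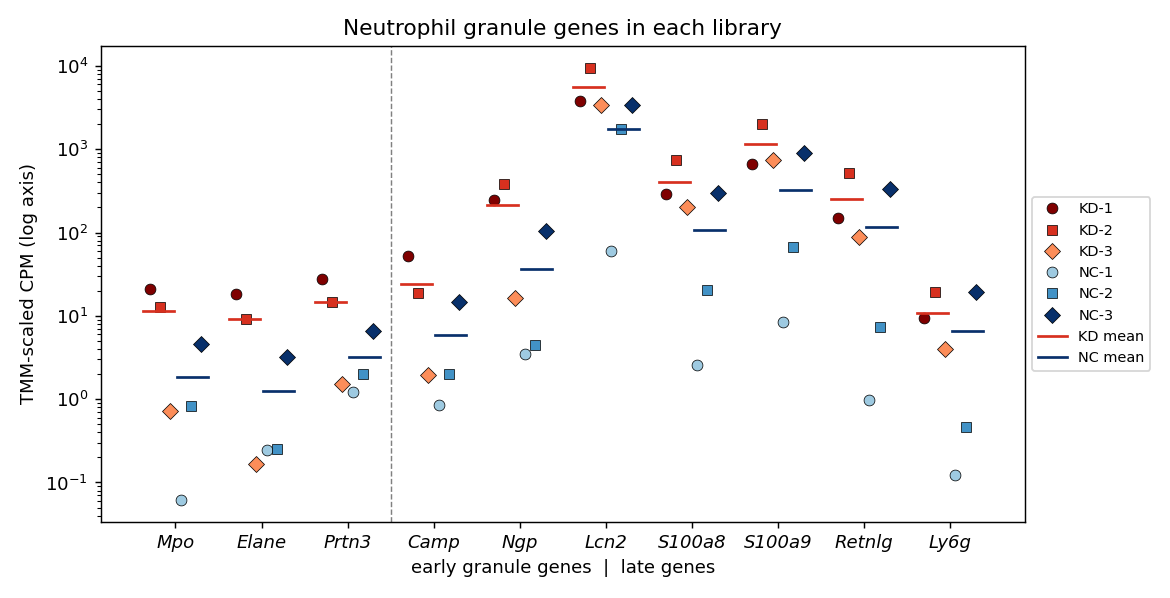
TMM-scaled CPM (log axis) of the 3 early and 7 late genes by library: reds are KD, blues are NC, and horizontal lines are group means (n = 3). KD-1 and KD-2 are high for all 10 genes. KD-3 joins them for Lcn2, S100a8 and S100a9 but lies below NC-2 for Mpo, Elane, Prtn3 and Camp. NC-3 lies above KD-3 for every gene but Lcn2, and above KD-1 for S100a8, S100a9, Retnlg and Ly6g.

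Camp and Ngp are specific granule products by role. Camp had the same order of libraries as Mpo and Prtn3, and Ngp followed the early enzymes in part. Camp encodes the cathelicidin CRAMP, an antimicrobial peptide (ENSMUSG00000038357, chromosome 9, 109847379 to 109849617), and had 895, 245 and 35 counts against 14, 39 and 260. Ngp, neutrophilic granule protein, a cathelicidin relative on the same chromosome (ENSMUSG00000032484, 110419747 to 110423012), had 4228, 5045 and 298 counts against 57, 87 and 1829. In both genes NC-3 lay above KD-3, by 7.56 times for Camp (interval 5.29 to 11.1) and 6.24 times for Ngp (5.52 to 7.08), and the groups overlapped. Ngp, unlike Camp, was highest in KD-2 and stood higher in KD-3 than in NC-2, at 16.4 against 4.44 CPM. Across the 6 libraries the log2 CPM of Camp correlated with the mean of the 3 early genes at r = 0.986. With the mean of the 7 late genes, of which it is 1, Camp correlated at r = 0.851. For Ngp the 2 values were close, at 0.944 and 0.938. These describe libraries that differed in tissue make-up.

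Lcn2 departed from its class. Lipocalin 2, which binds bacterial siderophores and is also made by many epithelia (ENSMUSG00000026822, chromosome 2, 32384633 to 32388252), had 65120, 124620 and 61802 counts against 978, 34414 and 59866. It was the only member whose KD values all lay above the NC values, 1 of 10, where 15.3% of all tested genes did so, and its lowest KD level exceeded its highest NC level narrowly, at 3406 against 3356 CPM. It took 0.794% of all counts in KD-2 and 0.00605% in NC-1. NC-2, low for every other late member, held 1758 CPM of Lcn2, and there Lcn2 had 86251 counts per 1000 of S100a8 (interval 78143 to 95435), against 11313 to 23286 in the other 5 libraries.

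S100a8 and S100a9, the subunits of calprotectin, a calcium- and zinc-binding protein that fills the neutrophil cytosol, kept a steady ratio and were abundant in all libraries but NC-1 and NC-2. S100a8 (ENSMUSG00000056054, chromosome 3, 90668978 to 90670035) had 4946, 9562 and 3644 counts against 42, 399 and 5292. S100a9 (ENSMUSG00000056071, 22596 bases away) had 11457, 26467 and 13282 against 135, 1310 and 16021. NC-3 was second highest of the 6 for each, so the groups overlapped, while NC-1 and NC-2 lay below every KD library. The pair stood at 2316 to 3645 S100a9 counts per 1000 of S100a8, although the level of S100a8 spanned 283 times between NC-1 and KD-2 (interval 209 to 393).

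Retnlg and Ly6g, late products of mature cells, were high in KD-2 and NC-3. Retnlg, a resistin-like secreted protein (ENSMUSG00000022651, chromosome 16, 48872621 to 48874496), had 2591, 6825 and 1615 counts against 16, 142 and 6014. Ly6g, the surface antigen by which mouse neutrophils are gated (ENSMUSG00000022582, chromosome 15, 75155240 to 75159126), had 160, 255 and 72 against 2, 9 and 341. For both, NC-3 exceeded every KD library except KD-2, and for Ly6g it came close to KD-2, at 19.1 against 19.5 CPM. Ly6g belongs to a family of similar genes, so reads shared with its relatives make its value uncertain.

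Compared per length, in CPM per kilobase of exon, S100a9 and Lcn2 were the most abundant members, with medians over the 6 libraries of 1342 and 1289. They were followed by S100a8 at 353, Retnlg at 203 and Ngp at 48.7. Camp (10.9), Ly6g (7.07), Prtn3 (2.45), Elane (1.78) and Mpo (0.799) came last. Neighbours in this order overlapped in range throughout: S100a9 ranged from 16 to 3884 CPM per kilobase, Lcn2 from 23 to 3639 and Mpo from 0.018 to 6.07.

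No member was called between KD and NC. In edgeR's quasi-likelihood test over all genes, 0 of 10 members had an adjusted p under 0.05, as did 0% of all 18444 tested genes. The smallest adjusted p among the members was 0.31, for Prtn3. At an unadjusted p under 0.05 there were 0 members, against 8.7% of all tested genes that were higher in KD at that level. All 10 fitted log2 fold changes were above 0, as were 50.6% of all tested genes, with a median of 2.00 against 0.01 over all tested genes. DESeq2, which called 0.821% of genes higher in KD at an adjusted p under 0.05, called 0 of the 9 members to which it gave a p (S100a9 had none). At an unadjusted DESeq2 p under 0.05 there were 2 of these 9, Elane and Prtn3, against 10.2% of all genes that were higher in KD at that level, and the smallest adjusted p was 0.19.

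By role, the early genes had fitted log2 fold changes of 2.62 for Mpo (SE 1.5, adjusted p = 0.34 by edgeR), 2.88 for Elane (SE 1.61) and 2.15 for Prtn3 (SE 1.07). In CPM these were 11.4 ± 10.1 against 1.84 ± 2.46 for Mpo, 9.27 ± 9.14 against 1.25 ± 1.73 for Elane and 14.5 ± 12.9 against 3.24 ± 2.85 for Prtn3 (SD, n = 3 each). The SD of each KD mean was nearly as large as the mean. The late genes ran from 0.73 for Ly6g (SE 1.57, adjusted p = 0.78 by edgeR) and 1.14 for Retnlg (SE 1.81) over 1.70 for Lcn2, 1.82 for S100a9, 1.93 for S100a8 and 2.06 for Camp to 2.56 for Ngp (SE 1.62, adjusted p = 0.38). S100a8 averaged 407 ± 285 CPM under KD against 107 ± 165 under NC, and Ngp at 217 ± 187 against 36.8 ± 56.9. In the authors' deposited table the log2 fold changes were 2.61, 2.87 and 2.14 for Mpo, Elane and Prtn3, with unadjusted p-values of 0.051, 0.038 and 0.03, and the p-value of S100a9 was missing.

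The estimates depended on single libraries, and their median most on NC-3. Without KD-2, Retnlg was at 0.08 and Ly6g at 0.04, and without NC-1 Ly6g was at 0.16. In both of these fits 10 of 10 members were above 0. Without NC-3 the median log2 fold change of the members was 5.04, from 2.62 for Lcn2 to 5.94 for Retnlg. In that fit 9 of 10, all but Lcn2, had an unadjusted p under 0.05 by edgeR, where 12.2% of all genes tested were higher in KD at that level. NC-3 held the highest NC level of every member, so leaving it out raises these estimates by construction. The members also varied together (Mpo with Prtn3 at r = 0.99, S100a8 with Retnlg at 0.99), so the 9 are not separate results. The members' smallest adjusted p without NC-3 was 0.22 by edgeR, so 0 were called there too. Without both KD-2 and NC-1 the median was 0.97 and 8 of 10 members were above 0, with Retnlg at -0.51 and Ly6g at -0.55. In that fit the early genes had a median of 1.99 and the late genes one of 0.55, with no test of the difference.

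**Figure D2:**
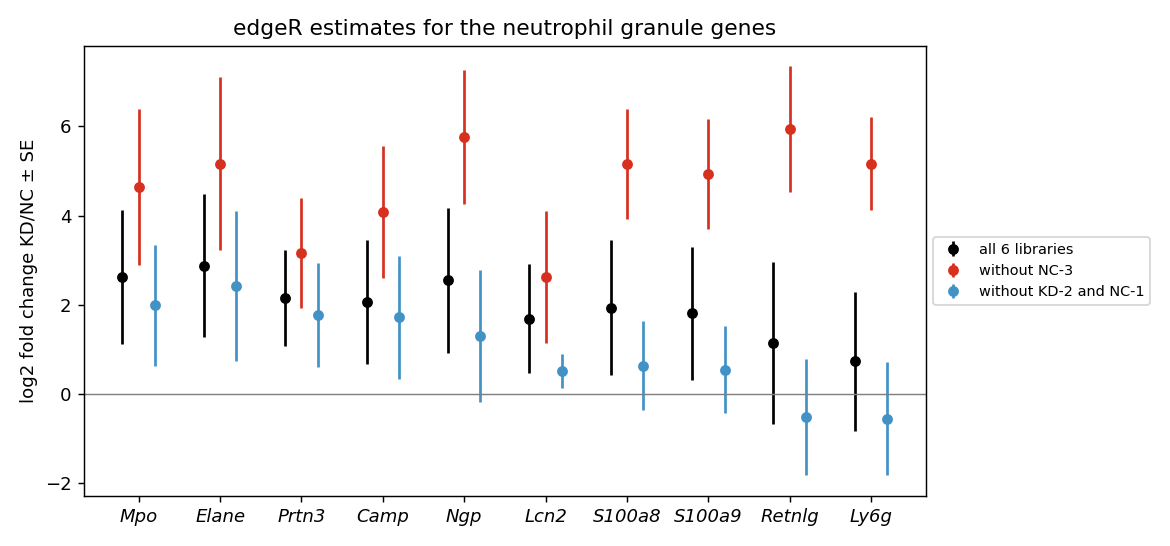
Fitted log2 fold change of KD over NC with its SE (edgeR) for the 10 members, from all 6 libraries (black), without NC-3 (red) and without KD-2 and NC-1 (blue). All red points lie above the black ones, and the blue points of Retnlg and Ly6g lie below 0.

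KD-3 was low for Mpo, Elane, Prtn3, Camp and Ngp, a set that crosses the early and late roles. Relative to KD-3, the level in KD-1 was 29 times higher for Mpo (interval 16.7 to 55), 17.7 times for Prtn3 (12.1 to 27), 27.1 times for Camp (19.3 to 39.1) and 15 times for Ngp (13.4 to 17). It was 1.44 times for S100a8, 1.12 times for Lcn2 and 0.914 times for S100a9. NC-3 over KD-3 was 6.49 times for Mpo, 19.7 times for Elane (6.4 to 98.1, from 3 counts in KD-3) and 4.21 times for Prtn3, against 1.48 for S100a8 and 0.985 for Lcn2. The late members Retnlg (3.79) and Ly6g (4.82) had ratios near that of Prtn3. These are ratios of single libraries with counting intervals, and no replicate stands behind them.

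**Figure D3:**
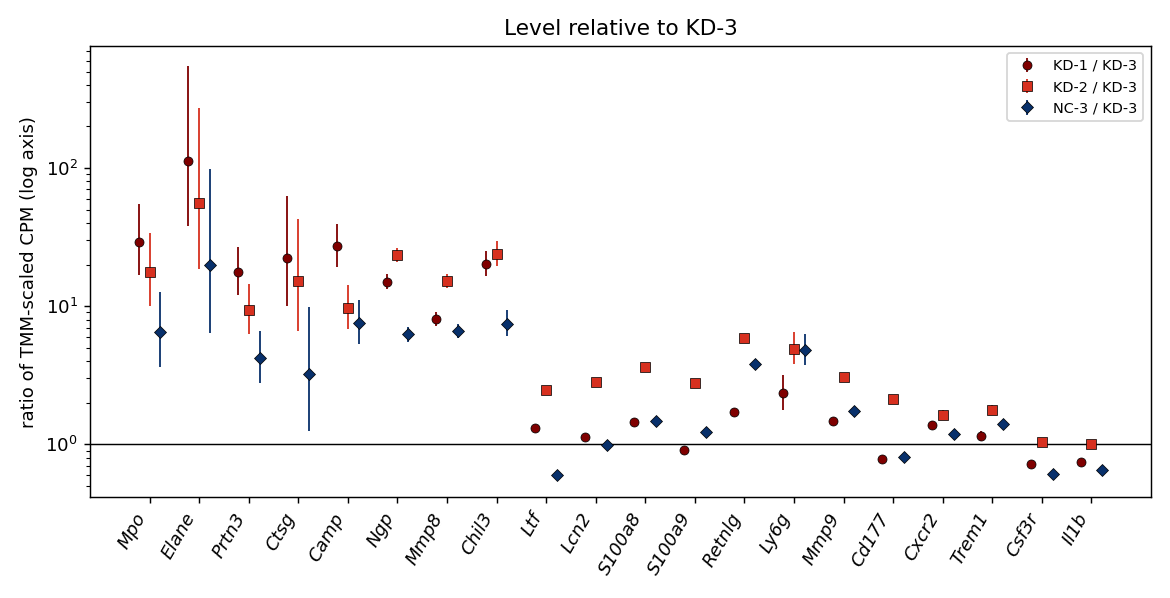
Level in KD-1, KD-2 and NC-3 divided by the level in KD-3 (ratio of TMM-scaled CPM, log axis) for early, specific granule and mature neutrophil genes; bars are 95% exact intervals for counting error. Mpo to Chil3 lie above 3 in all 3 libraries, whereas Csf3r and Il1b lie at or below about 1.

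Ratios within a library need no scaling between libraries. Mpo counts per 1000 S100a8 counts were 72 in KD-1, 17.4 in KD-2 and 3.57 in KD-3, against 23.8, 40.1 and 15.7. The KD-3 value (interval 1.9 to 6.11) lay apart from those of the other libraries except NC-1, whose interval ran from 0.589 to 140 around a single Mpo count. Camp per 1000 S100a8 counts ran from 9.6 in KD-3 over 25.6 in KD-2, 49.1 in NC-3, 97.7 in NC-2 and 181 in KD-1 to 333 in NC-1 (interval 168 to 623). Summed, the 3 early genes had 47, 9.81 and 2.32 counts per 1000 counts of the late genes other than Lcn2, against 94, 30.2 and 8.64. With Lcn2 included the ratios were 12.8, 2.75 and 0.545 against 20.1, 1.65 and 2.87, which placed NC-2 below KD-2 and NC-3 instead of above them. NC-1 was highest by either ratio, although lowest in level. It rested on 25 early counts, 20 of them from Prtn3, whose overlap with Plppr3 is given above. Among the early genes themselves Elane per 1000 Mpo counts was 888, 723 and 699 in KD-1, KD-2 and NC-3, the libraries with 58 or more counts of each, and Prtn3 per 1000 Mpo counts was 1317, 1139 and 1398 there.

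**Figure D4:**
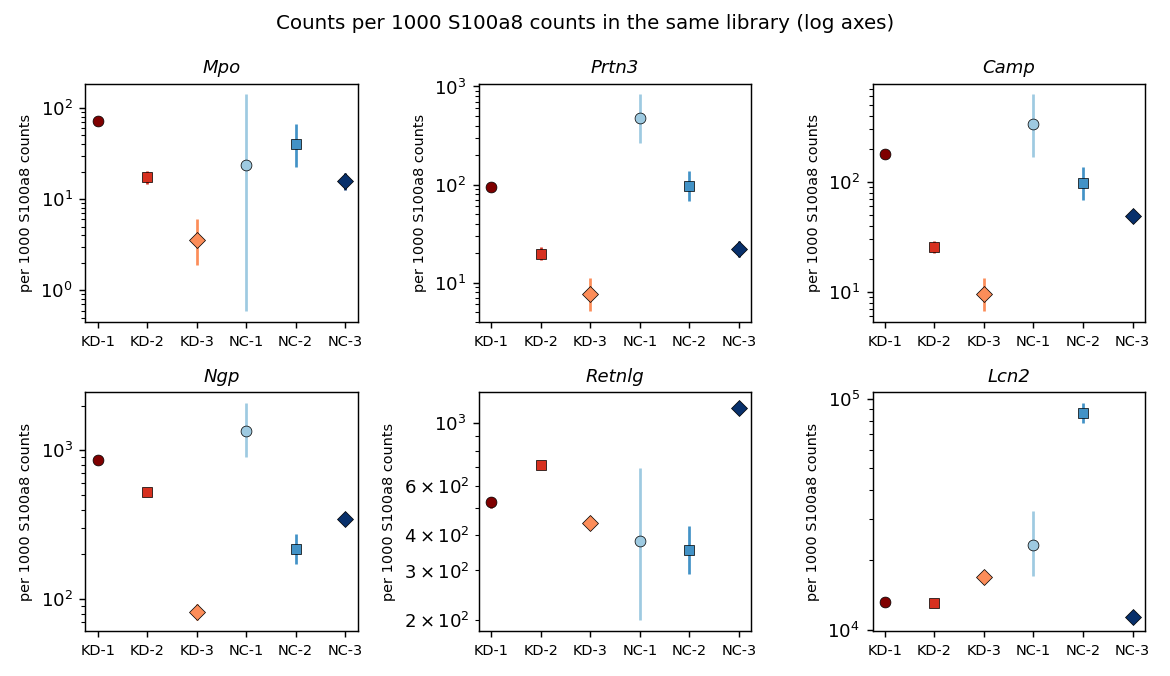
Counts of 6 members per 1000 S100a8 counts in the same library (log axes that differ between panels), with 95% exact intervals for counting error. KD-3 is lowest for Mpo, Prtn3, Camp and Ngp, though for Mpo its interval lies within that of NC-1. NC-2 is highest for Lcn2 and NC-3 for Retnlg.

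Of 8 other early granule genes listed, 6 were tested, 0 were called by edgeR in either direction, and 6 had a fitted log2 fold change above 0 (median 1.89). Ctsg, cathepsin G, a serine protease stored beside elastase, had 127, 65 and 6 counts against 0, 2 and 19. The fitted log2 difference was 3.41 (adjusted p = 0.28 by edgeR, SE 1.49), and the 0 counts in NC-1 allow up to 3, or 0.185 CPM. Prss57, another serine protease of neutrophil granules, differed from this order, with 30, 18 and 7 against 10, 2 and 8. Nkg7 had 110, 144 and 44 against 8, 33 and 38 and did not overlap between groups, and it is also a granule protein of cytotoxic lymphocytes. Clec5a, a myeloid surface lectin, had 204, 402 and 224 against 27, 118 and 214.

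Of 16 other specific and gelatinase granule genes, 16 were tested, 0 called and 16 above 0, with a median of 1.44. They divided in KD-3. Mmp8, neutrophil collagenase, had 2581, 3680 and 337 counts against 23, 55 and 2201, the order of Ngp. Mmp9, gelatinase B, had 2464, 3949 and 1780 against 718, 888 and 3057. Ltf, lactoferrin, which nasal glands also secrete, had 276738, 395800 and 223330 against 22855, 139904 and 131607, with groups that did not overlap. Its fitted log2 difference was 1.88 (adjusted p = 0.28 by edgeR, SE 0.798). NC-2 stood at 7147 CPM for Ltf, close to NC-3. Arg1, arginase 1, had 553, 635 and 104 against 7, 45 and 155. Cd177, a neutrophil surface glycoprotein, had 12051, 24775 and 16346 against 1062, 7972 and 13088, and the sheddase gene Adam8 had 4758, 7134 and 5222 against 769, 2903 and 4536.

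Of the mature neutrophil genes, 15 of 23 were higher in KD-1 than in KD-3. The share of all tested genes with that order was not computed. All 23 listed were tested, 0 were called and 23 were above 0 (median 1.63), and 7 had all KD values above all NC values, against 15.3% of all tested genes. Ifitm6, chosen after its values were seen, was low in KD-3 like Ngp, with 886, 2077 and 206 counts against 8, 38 and 1449. Csf3r, the receptor for granulocyte colony-stimulating factor, stood at 319, 455 and 440 CPM against 13.4, 112 and 266. Cxcr2, the receptor that draws neutrophils along chemokine gradients, had 1712, 1542 and 1315 counts against 92, 476 and 1520. The decoy receptor gene Ccrl2 stood at 183 ± 13.5 CPM in KD against 40.1 ± 42.3 in NC (SD, n = 3 each), Trem3 at 7.54 ± 0.98 against 1.84 ± 1.79, and Anxa1, annexin A1, at 1300 ± 434 against 425 ± 239. The 6 NADPH oxidase genes, whose products form the burst oxidase, were likewise all above 0 (median 1.42, 0 called). Ncf1 stood at 152 ± 34.6 against 39.4 ± 41.6 CPM, Ncf4 at 76.7 ± 24.8 against 21.5 ± 23.8 and Rac2 at 188 ± 62.2 against 70.6 ± 68.9.

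Among 9 transcription factors of granulocyte formation, 9 were above 0 (median 1.11) and 0 were called. Cebpe, which drives specific granule genes, had 33, 12 and 5 counts against 0, 3 and 14, highest in KD-1, then KD-2 and NC-3 like the early enzymes. Gfi1, a repressor needed for neutrophil maturation, stood at 5.7 ± 1.96 against 2.63 ± 1.31 CPM with no overlap, Runx1 at 136 ± 16.9 against 80.6 ± 20 and Irf8, a monocyte-lineage factor, at 64.5 ± 9.02 against 27.9 ± 18.8. Myb, a progenitor factor, overlapped, at 27 ± 2.86 against 16.9 ± 9.53. Of 12 growth factor and attractant ligands, 11 were tested, 9 were above 0, 2 below and 0 called. Cxcl1, a ligand of Cxcr2, had 493, 965 and 226 counts against 26, 128 and 422, and Csf3, the granulocyte growth factor, 827, 1449 and 642 against 15, 384 and 1006. Tnf had 939, 2098 and 1193 against 10, 163 and 765, and Il1b 9364, 9594 and 13265 against 64, 2255 and 8495; neither overlapped between groups. Il6 had 51, 64 and 34 against 4, 17 and 41.

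Markers of other cells differed between the same libraries. Of 11 erythroid genes listed 8 were tested, 8 of them above 0, and their summed level was 74 to 1855 CPM in KD and 75 to 883 in NC. By library the sums were 546, 1855 and 74 against 75, 112 and 883. KD-3, NC-1 and NC-2 were thus low for haemoglobin genes as for the early enzymes. Macrophage and monocyte markers (12 of 12 above 0) summed to 395 to 784 CPM in KD and 149 to 377 in NC, and 12 tested respiratory and gland markers, 12 of 12 above 0, to 37447 to 57688 in KD and 9952 to 24995 in NC. Their defining genes include Ltf, and Scgb1a1 was at 0 counts in 5 of 6 libraries. Bone and cartilage markers, from the skeleton around the epithelium, summed to 439 to 507 CPM in KD and 353 to 361 in NC, and 6 of 11 were above 0. Marrow progenitor and B precursor markers summed to 224 to 264 against 245 to 255 (7 of 8 above 0), with Rag2 at 0 counts in all libraries but KD-3. Ebf1, the largest part of that sum in NC, stood at 65.1, 13.6 and 91.2 CPM against 192, 137 and 104. That is the library order of the olfactory neuron sum, which ran from 73 CPM in KD-2 to 12323 in NC-1. The sum of this list may therefore not track marrow or B precursors, and the source of Ebf1 transcripts was not tested. By contrast, 5 of the 8 tested genes of this list (Kit, Cd34, Flt3, Erg and Mki67) had all KD values above all NC values. That compares with 15.3% of all tested genes, and 0 of the 8 were called. Dntt and Vpreb3 overlapped between groups. The untested Rag1, Rag2, Vpreb1 and Igll1 had at most 3 counts in any library. Eosinophil, basophil and mast cell markers summed to 9.37 to 20.4 against 5 to 8.84 (4 of 4 above 0), platelet markers to 22.4 to 81.1 against 28.3 to 39.8 (3 of 5) and squamous epithelium markers to 122 to 357 against 22 to 105 (5 of 8). Sustentacular cell markers summed to 4807 to 6870 against 6423 to 7085 (4 of 8). In KD-2 that sum was led by Cbr2 (3954 CPM) and Sult1c1 (1169 CPM). Cyp2g1, Cyp1a2, Ermn and Muc2 had all KD values below all NC values, at 29.5, 9.57, 11.2 and 7.97 CPM in KD-2. The share of all tested genes with KD below NC in this way was not computed. Sox2 and Gsta4 had all KD values above all NC values, as did 15.3% of all tested genes, and 0 of the 8 were called. The part of these cells in the members' levels was not tested.

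By likeness over the 6 libraries, the genes whose log2 CPM correlated best with the mean of the early members, out of 17031 genes with at least 1 CPM, were Zfp57 and Psmg3 (r = 0.996 each), Trmo (0.993), Tbc1d5 (0.992) and Wnt10a (0.990). Most of these varied little: Tbc1d5 ran from 26.3 to 31.2 CPM, whereas Wnt10a ran from 1.91 in NC-1 to 10.7 in KD-1. For the late members they were Fam83g (0.999), Hk2 (0.997), Ltb4r1 (0.996), Pla2g15 (0.995) and Treml2 (0.995). Ltb4r1, the leukotriene B4 receptor, ran from 0.308 CPM in NC-1 to 17.4 in KD-2. These correlations are descriptions over 6 libraries that differed in tissue make-up and depth, and no gene was tested for likeness.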

How the data were processed

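Per the submitters' processing notes, the work used DESeq, DESeq2, HTSeq 0.6.0, TopHat2, HISAT2 2.1.0 and Bowtie2 2.2.3 with the build GRCm38, and their roles are not stated. Per the file headers, the authors deposited raw counts per gene and library; the deposited table also holds a mean signal of scaled counts over the 6 libraries, a log2 fold change and an unadjusted p-value. Symbols of 25 rows altered by spreadsheet software were restored by gene ID from GENCODE M21.

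KD and NC were compared with edgeR 4.0.16 (R 4.3.3) across all genes: TMM factors, the default filter on low counts (18444 genes tested), quasi-likelihood test, two-sided, no covariate, Benjamini-Hochberg adjustment, threshold 0.05. DESeq2 1.42.0 and limma 3.58.1 (voom) were alternatives. The script was tested on simulated data. Log2 levels in correlations used CPM + 0.5. Exact 95% intervals cover counting error only, since they come from the counts of single libraries. Reads carry no molecular identifiers, so copies of the same molecule count as separate reads. The 10 members and the gene lists were chosen with earlier results of these data known. Named genes were the members, 10 fixed neutrophil genes and up to 3 others per neutrophil list with the smallest p. Others were chosen after their values were seen (Chil3, Ms4a3, Hbb-bs, Plppr3, Ifitm6, Ebf1, Kit, Cd34, Flt3, Erg, Mki67, the named sustentacular genes and Trem1, which is only plotted). No per-sample column was left unused.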

Additional observations from a re-analysis of the deposited data

How the results depend on the processing

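Across 13 alternatives, 127 of 129 member estimates with an adjusted p kept their direction and side of the threshold, and 0 were called. DESeq2 gave S100a9 no p. The 2 reversals were Retnlg (-0.51) and Ly6g (-0.55) without both KD-2 and NC-1. The edgeR counts of genes called higher and lower, 0 and 0, became 151 and 196 with DESeq2 and 3 higher without both KD-2 and NC-1. Leaving out each library in turn gave 0 calls throughout, while the members' median log2 fold change ran from 1.46 without NC-1 to 5.04 without NC-3. With limma-voom it was 2.89. Scaling by total counts lowered it to 1.81 and shifted the median of all genes to -0.14. Replicate numbers do not pair the libraries by the labels, and deviations of same-numbered libraries correlated at 0.305, 0.101 and -0.257; adding a replicate block gave a median of 3.57 and 0 members or genes were called. The causes of these changes were not tested. Depth limits the lowest values: Mpo rests on 1 count and Ly6g on 2 in NC-1, and Elane on 3 in KD-3.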

Other observations

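In a comparison chosen after the values were seen, 65 of 18444 tested genes (0.352%) stood at least 4 times higher in each of KD-1, KD-2 and NC-3 than in KD-3. They included 5 of the 10 members, Mpo, Elane, Prtn3, Camp and Ngp. The granule genes Mmp8, Chil3, a chitinase-like protein, and Ms4a3, a marker of granulocyte and monocyte precursors, were also among them, as was Ifitm6. Chil3 had 1875, 1679 and 98 counts in the KD libraries, in number order, against 35, 58 and 719 in the NC libraries, and Ms4a3 had 84, 22 and 2 against 0, 2 and 17. So were 6 of the 8 tested erythroid genes, with Hbb-bs, an adult beta-globin, at 4518, 14382 and 651 counts against 607, 1132 and 8661. Immunoglobulin variable genes contributed 16. The list was given no test because its libraries were picked by their values.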
